A study of Homo sapiens with 4 samples.

Results

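The 10 genes described here encode enzymes of de novo nucleotide synthesis, 7 of the purine route (PPAT, GART, PFAS, PAICS, ADSL, ATIC and IMPDH2) and 3 of the pyrimidine route (CAD, DHODH and UMPS). They were chosen by name, through the gene identifiers of GENCODE release 44, and each matched 1 of the 58735 genes of the table. RNA-seq was run on NB4 cells, as the labels name them, an established line of human acute promyelocytic leukaemia. The control group was 2 libraries of cells without GNE-987, and the GNE-987-treated group was 2 libraries of cells exposed for 24 h to 25 nM of the compound. It is a small molecule that joins a binder of bromodomain proteins to a ligand of an E3 ubiquitin ligase, so that the bound proteins are degraded. Nothing in the labels says that the 2 libraries of a group came from separate cultures, so P values here measure only the spread between these libraries, which may be technical.

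Cells make purine and pyrimidine nucleotides either from small precursors or by salvage of bases and nucleosides. On the purine route the ring is built on phosphoribosyl pyrophosphate (PRPP) by a fixed series of enzymes that ends at inosine monophosphate (IMP), from which separate branches lead to adenine and guanine nucleotides. On the pyrimidine route the ring is built first, as orotate, and then joined to PRPP to give uridine monophosphate. Dividing leukaemia cells depend on both routes, and inhibitors of IMPDH and of DHODH are known drugs or drug candidates in leukaemia.

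The libraries stood apart in ways that touch every value below. Defining promyelocyte markers were close to absent from the control libraries. MPO was at 0.0246 and 0 FPKM (fragments scaled by gene length and library depth), and ELANE and CTSG were listed at 0 in both. Erythroid genes were high there, with the transcription factor GATA1 at 124 and 122 FPKM and KLF1 at 85.2 and 85.9 FPKM. The summed FPKM of the 11 promyelocyte markers was 13.1 and 11.2 in the control group and 39.1 and 37.4 in the GNE-987-treated group. That of the 12 erythroid and megakaryocyte markers was 397 and 396 in the control group and 415 and 367 in the GNE-987-treated group. This sum held opposite moves on the deposited scale. GATA1 fell to 15.1 and 12.5 FPKM after treatment and KLF1 to 27.3 and 24.8 FPKM. HBG1 rose from 42.3 and 44.8 FPKM in the control group to 154 and 123 FPKM after treatment. The 6 markers of other blood cells summed to 1.07 and 1.07 FPKM in the control group and to 74.1 and 74.2 FPKM after treatment, nearly all of it CD14 (50.4 and 52.2 FPKM) and CD79A (23.4 and 21.4 FPKM), while CD3E and NCAM1 stayed at or near 0. The part of these markers in the results below was not tested.

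Depth and scaling also moved with the groups. Reads on genes, worked out from the spacing of low FPKM values, numbered 19474274 and 19277586 in the controls against 12425157 and 12931570 after treatment. FPKM values summed to 218486 and 227275 in the control group and to 624137 and 612335 in the treated group, GAPDH was at 398 and 432 FPKM against 1501 and 1499 FPKM, and mitochondrially encoded genes took 3.74% and 4.53% of reads against 15.6% and 15.2%. In bulk RNA, fewer cells of a type and less RNA per cell cannot be told apart. Genes were called lower or higher by limma, fitted across all genes on log2(FPKM + 0.1), where the P value before adjustment was under 0.05 and the fold change was under 0.5 or over 2. Genes with a mean under 0.5 FPKM were left out. As deposited, 5602 of 16668 tested genes were called higher and 4148 lower. The split was 3031 higher to 9738 lower when libraries were scaled to equal GAPDH and 3320 to 8751 when scaled to equal sums of FPKM. It was 4177 to 6656 with scaling to reads on genes, 4459 to 6113 with scaling to reads on nuclear genes and 4235 to 5464 after quantile normalization. The median log2 fold change of all tested genes was 0.17 as deposited, and these scalings moved it by -1.77, -1.40, -0.74, -0.57 and -0.42 in the same order. Scaling by the median ratio over protein-coding genes moved it by 0.25. Directions below are therefore given as deposited, with the exceptions beside them.

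All 10 genes passed the filter on low values. As deposited, 5 of the 10 were called lower in the GNE-987-treated group, namely GART, PFAS and ATIC of the purine route and CAD and UMPS of the pyrimidine route, where 24.9% of all tested genes and 31.7% of the 10996 tested protein-coding genes were called lower. DHODH alone was called higher, 1 gene of 10 beside 33.6% of all tested genes. This call was kept with quantile normalization and with the median ratio over protein-coding genes. It was lost with equal GAPDH and equal sums of FPKM, where the sign of DHODH turned, and with reads on genes or on nuclear genes. PPAT, PAICS, ADSL and IMPDH2 were called neither way. The median log2 fold change of the 10 genes was -0.71, against 0.17 over all tested genes and -0.29 over protein-coding genes. With libraries scaled to reads on genes, 7 of the 10 were lower and 0 higher, beside 50.9% of protein-coding genes lower and 15.7% higher. The median of the 10 lay -0.89 from the median of all genes as deposited, and under the other scalings of whole libraries this distance was between -0.96 and -0.89. A single factor per library shifts all log2 fold changes nearly alike, so this narrow range was fixed in advance and supports nothing. Only quantile normalization, which reshapes each library, gave a larger distance, of -1.40. The 10 genes are protein-coding, and the median of protein-coding genes lay nearer to theirs, at -0.29 against -0.71 as deposited. It was at -2.08 against -2.55 for the 10 genes with equal GAPDH, and at -1.05 against -1.49 with reads on genes.

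**Figure D1:**
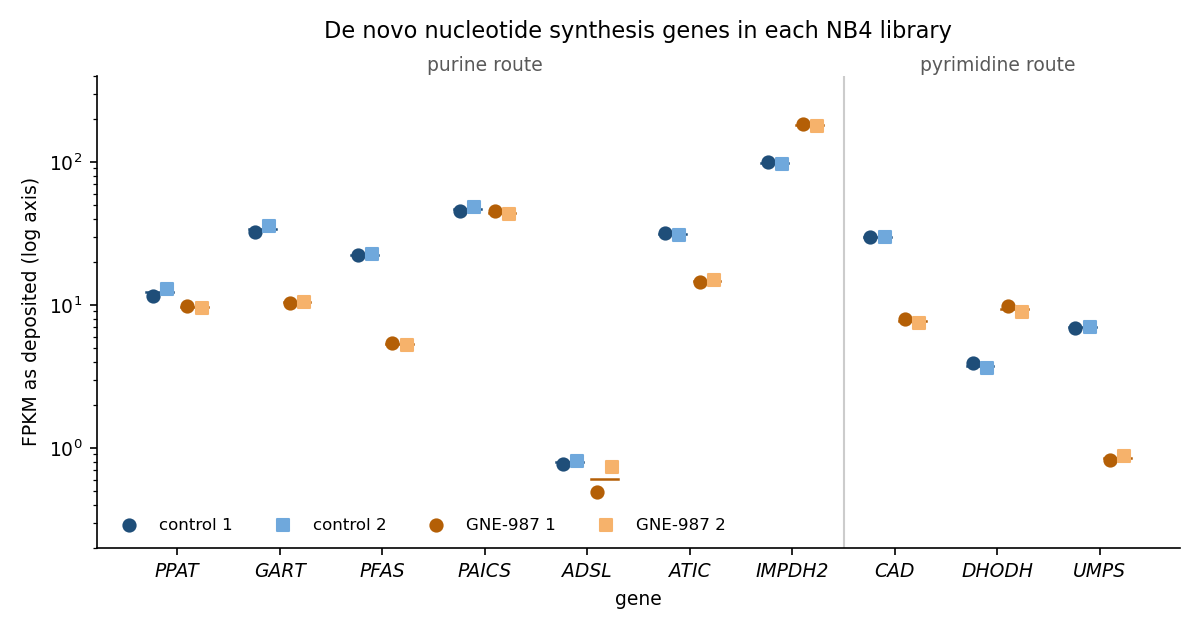
FPKM as deposited (log axis) of the 10 genes in each of the 4 libraries, blue for the control group and orange for the GNE-987-treated group, with circles for replicate 1, squares for replicate 2 and short lines for the group means. PFAS, CAD and UMPS show wide gaps downwards between groups (UMPS from 6.88 and 7.01 to 0.821 and 0.882 FPKM), PAICS overlaps, and DHODH and IMPDH2 lie higher after treatment on this scale, which some other scalings turn.

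PPAT, the amidotransferase that commits PRPP to purine synthesis, and PAICS, a bifunctional enzyme of the middle of the route, are neighbours on chromosome 4 (ENSG00000128059 and ENSG00000128050; GENCODE 44 on GRCh38, chr4:56393362-56435615, minus strand, and chr4:56435741-56464578, plus strand). Their annotated starts face away from each other and are 126 bases apart. PPAT measured 11.6 and 12.9 FPKM in the controls, and 9.85 and 9.44 FPKM after treatment. Both treated values lay below both control values, but the log2 fold change was only -0.34 ± 0.08 (SE), with an adjusted P value of 0.0189 in limma, short of the fold required. PAICS measured 45.1 and 48.4 FPKM in the controls, and 45.3 and 42.9 FPKM after treatment, so that the groups overlapped. Its log2 fold change was -0.08 ± 0.06 (adjusted P value 0.281, limma). These were the smallest shifts among the genes of the route that were well above the filter, and PAICS had 7798, 8046, 2850 and 2849 reads behind its values. With libraries scaled to equal GAPDH the same genes were at -2.18 and -1.93 and were both called lower, and with the median ratio over protein-coding genes PAICS was at 0.18. Within each library the ratio of PAICS to PPAT is kept by any single factor per library. As deposited it was 3.88 and 3.76 in the controls against 4.60 and 4.55 after treatment, a log2 difference of 0.26, but quantile normalization, which reshapes each library, turned it to -0.26. The exact two-sided permutation test gave P = 0.33, the smallest value that 2 libraries against 2 allow. The annotated pseudogenes of the pair drew few reads. PAICSP1 had 8 and 7 reads in the controls against 43 and 72 after treatment, and PPATP1 had between 2 and 10.

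The region between the pair is shown because a single short window covers the starts of both. The sequence is the PPAT promoter window of RefSeq (GRCh38.p14, chr4:56435566-56435865, minus strand, 250 bases before to 50 bases after the start). Capitals mark CACGTG, the canonical E-box that MYC with MAX and other bHLH factors can bind, with its first base 182 bases before the PPAT start.
PPAT: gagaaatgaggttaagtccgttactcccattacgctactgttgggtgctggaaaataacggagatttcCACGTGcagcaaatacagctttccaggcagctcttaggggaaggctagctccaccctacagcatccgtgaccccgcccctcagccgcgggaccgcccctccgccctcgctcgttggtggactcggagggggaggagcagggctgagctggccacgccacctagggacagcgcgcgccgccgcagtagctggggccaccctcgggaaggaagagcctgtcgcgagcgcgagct
The RefSeq window of PAICS that starts nearest to PPAT holds the same site 40 bases after its own start. The letters reading the same on both strands, 1 site counts for both genes.

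GART carries 3 activities of the purine route in a single protein, and PFAS makes the amidine that follows it. GART measured 32.4 and 35.8 FPKM in the controls, and 10.4 and 10.5 FPKM after treatment, with no overlap. The log2 fold change was -1.70 ± 0.07 (SE; adjusted P value 0.000247, limma), which is 30.7% of the control level. PFAS measured 22.3 and 22.5 FPKM in the controls, and 5.38 and 5.24 FPKM after treatment. It fell to 24.04% of the control level (log2 fold change -2.06 ± 0.05, adjusted P value 0.000150), the lowest remaining share on the purine route. Both genes were called lower under each scaling, test and left-out library tried, with log2 fold changes between -3.54 and -1.44 for GART and between -3.88 and -1.80 for PFAS.

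Each of these genes also overlaps another gene near its start. GART (ENSG00000159131, chr21:33503931-33543491, minus strand) overlaps SON, an RNA-binding splicing cofactor on the opposite strand whose annotated start is 453 bases away. SON was at 28.5, 31.3, 26.8 and 27.1 FPKM in control 1, control 2, GNE-987 1 and GNE-987 2, a log2 fold change of -0.15 (adjusted P value 0.105, limma). PFAS (ENSG00000178921, chr17:8247618-8270491, plus strand) overlaps CTC1, a telomere maintenance gene whose start is 440 bases away on the opposite strand. CTC1 was at 2.64, 2.73, 0.559 and 0.608 FPKM in the same order, and was called lower (log2 fold change -2.03, adjusted P value 0.000718). The library kit did not mark strand, so reads in stretches shared by genes on opposite strands cannot be told apart. None of the exon bases of the canonical GART or PFAS transcript (0%) was shared with these neighbours. The FPKM values rested on more bases, 7751 for GART and 6471 for PFAS, against 3318 and 5369 canonical exon bases. Sharing over the other exon bases was not tested.

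ADSL, which acts once on the route to IMP and again on the adenine branch (ENSG00000239900, chr22:40346461-40390463, plus strand), had the lowest level of the 10 genes. It measured 0.776 and 0.807 FPKM in the controls, and 0.488 and 0.733 FPKM after treatment. The treated libraries lay below the controls but differed from each other more than one of them differed from the controls, and the log2 fold change of -0.35 ± 0.26 did not pass (adjusted P value 0.288, limma). Reads on ADSL numbered 254, 254, 58 and 92. By the recovered reads its FPKM rested on 14222 bases, the longest among the 10 genes, while its coding sequence has 1452 bases, and 30.6% of the exon bases of its canonical transcript are shared with a readthrough gene on the same strand. The low level therefore holds for the length that was used, and the split of reads between ADSL and the readthrough gene is uncertain.

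ATIC (ENSG00000138363, chr2:215311956-215349773, plus strand) carries the last steps to IMP. It measured 31.6 and 30.9 FPKM in the controls, and 14.5 and 14.9 FPKM after treatment. It was called lower at 47.3% of the control level (log2 fold change -1.08 ± 0.05, adjusted P value 0.000279, limma). This call lay near the threshold. ATIC was at -0.82 under the median ratio over protein-coding genes, where it was not called, and limma's test against a fold change of 2 did not call it either (unadjusted P value 0.0827, a model fitted with limma across all genes). Its RefSeq window (chr2:215311809-215312108, plus strand) is printed because it was the only matched window with CACGTG at 2 places, 46 bases before and 29 bases after the start, in capitals.
ATIC: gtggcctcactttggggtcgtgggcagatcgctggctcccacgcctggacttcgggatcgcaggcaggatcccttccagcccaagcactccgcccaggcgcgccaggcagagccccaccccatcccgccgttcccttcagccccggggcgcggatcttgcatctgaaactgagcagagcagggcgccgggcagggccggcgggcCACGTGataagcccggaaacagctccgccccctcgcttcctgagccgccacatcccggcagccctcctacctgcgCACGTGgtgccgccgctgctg

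IMPDH2, the main form of the enzyme that takes IMP into the guanine branch (ENSG00000178035, chr3:49024325-49029447, minus strand), was the most abundant of the 10 genes and went the other way as deposited. It measured 99.3 and 96.3 FPKM in the controls, and 185 and 178 FPKM after treatment. The groups did not overlap and the log2 fold change was 0.89 ± 0.04 (adjusted P value 0.000351, limma), a fold change of 1.85 that fell short of the fold required. Scaling decided its sign, with -0.96 at equal GAPDH, -0.58 at equal sums of FPKM, -0.17 after quantile normalization and 1.15, called higher, with the median ratio over protein-coding genes. Reads on IMPDH2 numbered 12680 and 11818 in the controls against 8584 and 8700 after treatment. A ratio within each library is kept by any single factor per library, though not by quantile normalization. IMPDH2 stood to IMPDH1, the other form of the enzyme, as 3.52 and 3.65 in the controls against 12.7 and 12.4 after treatment. That is a log2 difference of 1.80, with no overlap (exact two-sided permutation P = 0.33, the smallest possible), and of 0.97 after quantile normalization. IMPDH1 itself was at 28.2, 26.4, 14.5 and 14.4 FPKM, a log2 fold change of -0.91 that was not called. An antisense lncRNA shares 5.03% of the exon bases of the canonical IMPDH2 transcript and had 6, 3, 26 and 30 reads, few beside those of IMPDH2.

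CAD, the 3-activity protein that starts the pyrimidine route, fell, as did UMPS, the bifunctional enzyme that ends it. The genes lie at chr2:27217369-27243943 (ENSG00000084774, plus strand) and chr3:124730433-124749273 (ENSG00000114491, plus strand). CAD measured 29.9 and 29.8 FPKM in the controls, and 7.94 and 7.44 FPKM after treatment. Its log2 fold change was -1.94 ± 0.06 (adjusted P value 0.000175, limma), 26.01% of the control level. UMPS measured 6.88 and 7.01 FPKM in the controls, and 0.821 and 0.882 FPKM after treatment, the deepest fall of the 10 genes. At 13.5% of the control level, its log2 fold change was -2.89 ± 0.10 (adjusted P value 0.000204), with 1201 and 1176 reads against 52 and 59. Both were called lower under each scaling, test and left-out library tried, CAD between -3.78 and -1.68 and UMPS between -4.60 and -2.10 on the log2 scale.

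DHODH (ENSG00000102967, chr16:72008588-72027664, plus strand), the mitochondrial enzyme between them that makes orotate, did not follow. It measured 3.91 and 3.59 FPKM in the controls, and 9.75 and 8.94 FPKM after treatment. As deposited it was called higher (log2 fold change 1.29 ± 0.09, adjusted P value 0.000699, limma), but it was at -0.53 with equal GAPDH and at -0.15 with equal sums of FPKM. At 0.53 with reads on genes and 0.70 with reads on nuclear genes it was above 0 and not called. It was called higher at 1.25 after quantile normalization and at 1.55 with the median ratio over protein-coding genes. The reads recovered on DHODH hardly differed, 623 and 550 in the control libraries against 564 and 546 in the treated ones. Reads on all genes, however, were fewer in the treated libraries (12425157 and 12931570, against 19474274 and 19277586 in the controls). UMPS and DHODH are shown side by side because they lay at the opposite ends of the 10 genes. The UMPS window (RefSeq, GRCh38.p14, chr3:124730202-124730501, plus strand) holds TGACGT and, overlapping it, its reverse complement, the letters of a cAMP response element, in capitals 47 bases before the start. The DHODH window (chr16:72008494-72008793, plus strand) holds CACGTG, in capitals, 159 bases before the start.
UMPS: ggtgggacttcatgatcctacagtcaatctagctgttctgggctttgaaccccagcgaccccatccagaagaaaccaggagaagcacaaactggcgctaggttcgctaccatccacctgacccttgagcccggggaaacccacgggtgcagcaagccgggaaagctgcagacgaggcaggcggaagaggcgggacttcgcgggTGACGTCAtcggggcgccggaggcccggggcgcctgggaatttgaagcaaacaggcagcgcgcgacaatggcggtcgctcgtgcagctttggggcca
DHODH: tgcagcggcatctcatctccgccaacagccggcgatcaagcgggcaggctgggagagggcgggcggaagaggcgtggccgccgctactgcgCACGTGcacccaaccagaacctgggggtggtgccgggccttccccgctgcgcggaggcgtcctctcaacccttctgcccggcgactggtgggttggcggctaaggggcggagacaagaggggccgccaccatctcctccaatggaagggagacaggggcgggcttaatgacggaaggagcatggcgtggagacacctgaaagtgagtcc

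RefSeq promoter windows were matched for 8 of the 10 genes, 12 windows in all, and ADSL and IMPDH2 had no entry. CACGTG, which reads the same on both strands, was in 4 of the 12 windows, from PPAT, PAICS, ATIC and DHODH. PPAT and PAICS share their site. Of all 35116 RefSeq windows 7.26% hold CACGTG. None of the windows of GART, PFAS, CAD and UMPS contained it, but bases outside the windows were not searched. The 4 genes with CACGTG were called lower (ATIC), higher as deposited (DHODH) or neither (PPAT and PAICS). TGACGT, searched on both strands, was in 4 of the 12 windows, those of GART, PFAS and UMPS, and in 7.98% of all windows. The GART windows with starts at chr21:33542892 and chr21:33542889 cover nearly the same bases, so a single GART site was counted in both. In the PFAS window TGACGT lay 164 and 9 bases before the start. GGGCGG, the GC box, was in 8 of the 12 windows and in 44.95% of all windows. By gene it was in a window of 7 of the 8, and UMPS was the gene without it. CCAAT was in 5 of the 12 windows, those of CAD, DHODH and GART, and in 34.6% of all windows. The same near-identical GART windows both count there. These matches describe letters in a window of 300 bases and say nothing of which factors bound there.

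**Figure D2:**
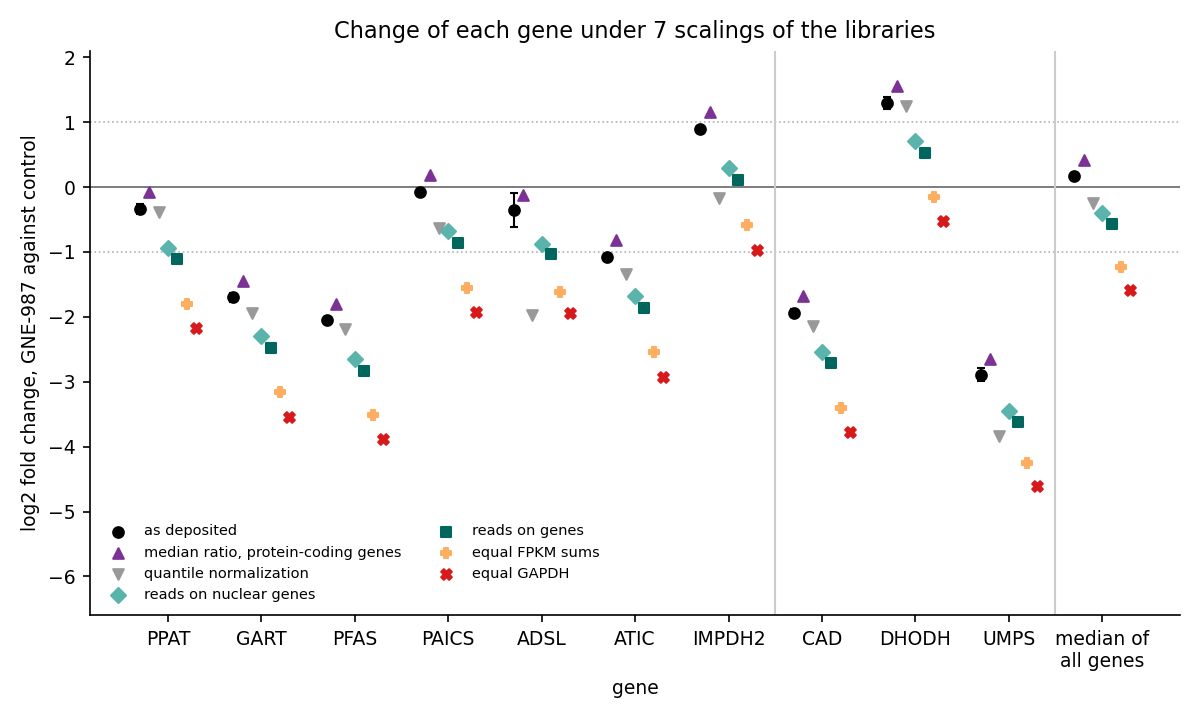
Log2 fold change (GNE-987 against control) of the 10 genes and, at the right, the median of all tested genes, with 1 marker for each of 7 scalings; black circles are the values as deposited with their SE, and dotted lines mark -1 and 1. GART, PFAS, CAD and UMPS stay below -1 under each scaling, DHODH ranges from -0.53 to 1.55 and IMPDH2 from -0.96 to 1.15.

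The order of the genes changed with treatment. In the control group the mean levels, per length, ran from IMPDH2 (97.8 ± 2.1 FPKM, SD, n = 2) through PAICS, GART, ATIC, CAD, PFAS, PPAT, UMPS and DHODH to ADSL (0.792 ± 0.022 FPKM). In the treated group the order was IMPDH2 (181 ± 5.23 FPKM), PAICS, ATIC, GART, PPAT, DHODH, CAD, PFAS, UMPS and ADSL (0.610 ± 0.173 FPKM). Neighbours in these orders did not overlap between libraries, except PPAT and DHODH in the treated group. Ranks among the tested protein-coding genes of the same library are also kept by any single factor per library. IMPDH2 stayed at percentile 97.8 and 97.8 in the controls against 97.8 and 97.7 after treatment. PAICS went from 93.9 and 94.5 to 91.7 and 91.4, and PPAT from 71.8 and 74.2 to 71.4 and 70.6. The genes called lower dropped in rank. UMPS went from percentile 58.0 and 58.0 to 11.5 and 12.8, PFAS from 85.0 and 85.3 to 57.4 and 56.9, and CAD from 89.6 and 89.8 to 67.0 and 65.7. DHODH climbed from 42.6 and 40.0 to 71.2 and 69.5, so that it passed CAD, PFAS and UMPS on the way.

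**Figure D3:**
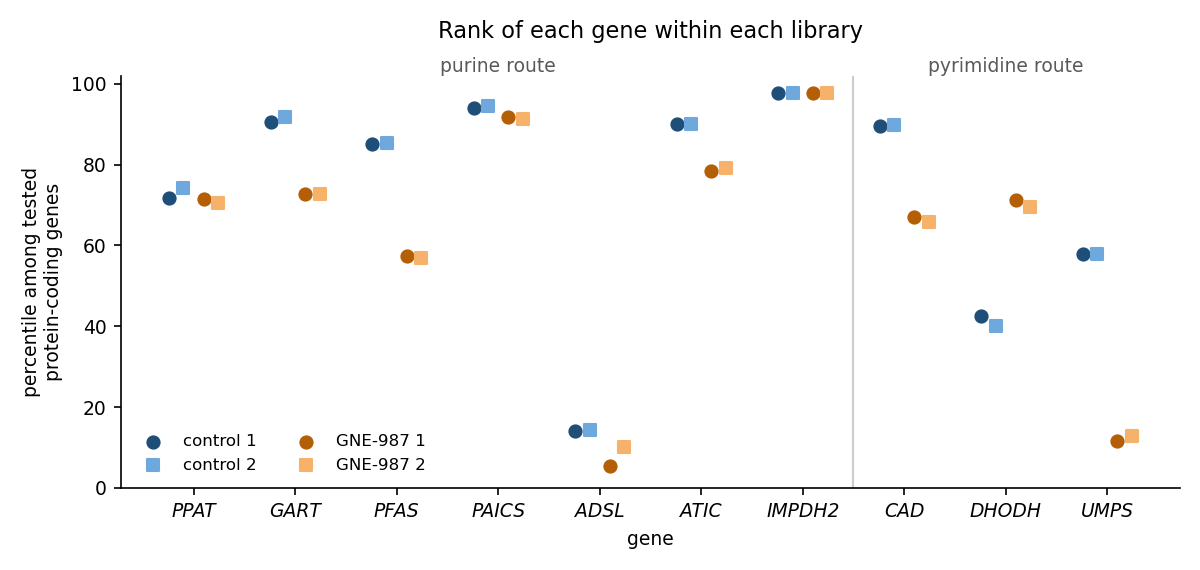
Percentile of each gene's FPKM among the tested protein-coding genes of the same library, blue for the control group and orange for the GNE-987-treated group. IMPDH2 stays near percentile 97.8 in each library, UMPS drops from 58.0 to 11.5 and 12.8, and DHODH climbs from 42.6 and 40.0 to 71.2 and 69.5.

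The summed FPKM of the 10 genes as deposited was 284 and 288 in the controls against 290 and 279 after treatment. This depended on scaling, since the sum was 378 and 372 against 219 and 214 with libraries scaled to reads on genes, 482 and 470 against 172 and 169 with equal sums of FPKM and 259 and 263 against 317 and 305 with the median ratio over protein-coding genes. The share of each gene in the sum is kept by any single factor per library. IMPDH2 took 35.0% and 33.4% of the sum in the controls against 63.9% and 63.8% after treatment. Over the same libraries CAD went from 10.5% and 10.3% to 2.74% and 2.67%, and GART from 11.4% and 12.4% to 3.58% and 3.75%. PAICS kept a like share, 15.9% and 16.8% against 15.7% and 15.4%. The purine genes together stood to the pyrimidine genes as 5.97 and 6.13 in the controls against 14.6 and 15.1 after treatment, a log2 difference of 1.29 (exact two-sided permutation P = 0.33, the smallest possible). Without IMPDH2 the ratio was 3.53 and 3.75 against 4.64 and 4.85. The ratio of the 10-gene sum to the summed salvage genes went from 0.884 and 0.944 in the controls to 0.490 and 0.470 after treatment. That was a log2 difference of -0.93 with the same P value. As deposited the summed salvage genes rose from 321 and 305 to 591 and 593 FPKM, while the 10-gene sum hardly moved. Most of that rise lay in APRT (100.4 and 91.3 to 247 and 247 FPKM) and TK1 (88.8 and 86.0 to 211 and 217 FPKM). Of the 12 tested salvage genes 5 were called lower. After adjustment over the 6 ratios computed, the smallest P value was 0.4.

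**Figure D4:**
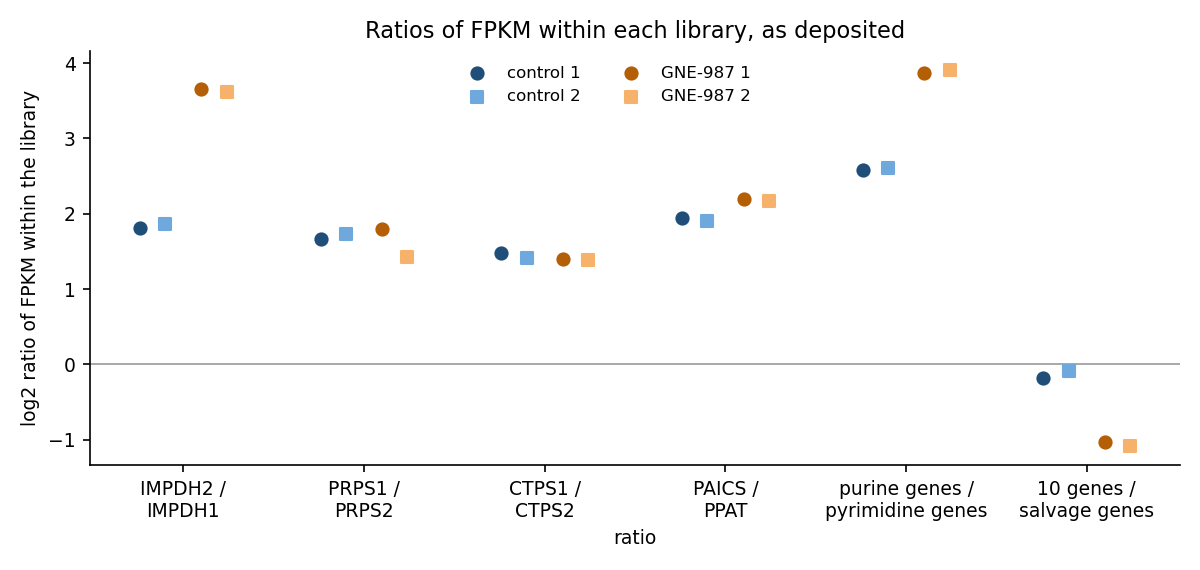
Log2 of 6 ratios of FPKM within each library, blue for the control group and orange for the GNE-987-treated group. IMPDH2 over IMPDH1 lies at 1.81 and 1.87 in the controls against 3.66 and 3.62 after treatment, purine over pyrimidine genes also separates the groups, and PRPS1 over PRPS2 overlaps.

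Around the 10 genes, 60 genes of nucleotide metabolism were listed in 5 groups, and 49 of them were tested. As deposited 15 were called lower and 4 higher, with a median log2 fold change of -0.52. All 15 kept a value below 0 in each scaling and 10 of them were called lower in each. These counts stood beside 24.9% of all tested genes and 31.7% of protein-coding genes called lower, and 33.6% of all tested genes called higher. Of the 4 higher, GUK1 was above 0 in each scaling but not called in each, and APRT and TK1 turned below 0 in some. NT5E passed the filter through the treated libraries alone, so its call supports nothing. The same holds for TK2, counted among the 15 and the 10, which passed through the control libraries alone.

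The enzymes that supply PRPP and those of the branches beyond IMP and UMP held 5 genes called lower of 10 tested and 0 higher, with a median log2 fold change of -0.97. ADSS2, the first enzyme of the adenine branch, measured 17.1 and 17.0 FPKM in the controls, and 2.28 and 2.72 FPKM after treatment, a log2 fold change of -2.73 ± 0.11 (adjusted P value 0.000241, limma). GMPS, which follows IMPDH on the guanine branch, was at 22.2 and 20.6 FPKM against 4.90 and 4.73 FPKM (-2.13 ± 0.07, adjusted P value 0.000188). With IMPDH1 at -0.91 and IMPDH2 at 0.89, the guanine branch thus held values of both signs as deposited. CTPS1 and CTPS2, which make CTP from UTP, were both called lower, at -1.55 and -1.50, and their ratio moved little (2.83 and 2.70 against 2.76 and 2.74). PRPS1 and PRPS2, the PRPP synthetases, were at -0.78 and -0.70 and were not called, and PRPSAP2, an associated regulatory subunit, was called lower at -1.04. ADSS1, the muscle form of ADSS2, was at 0.766 ± 0.065 FPKM in the control group and at 1.46 ± 0.10 FPKM in the treated group (0.85, not called).

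Salvage was divided. Of 12 tested genes 5 were lower and 2 higher, and the median log2 fold change of 0.03 as deposited was below 0 under 5 of the 7 distinct scalings. UCK2 and UCK1, the uridine-cytidine kinases, were lower at -2.15 and -1.50, as were DCK, the deoxycytidine kinase (-1.95), and UCKL1 (-1.04). TK2, the mitochondrial thymidine kinase (-1.66), was also called lower. It went from 1.16 and 1.06 FPKM in the controls to 0.250 and 0.316 FPKM after treatment. TK2 passed the filter through the controls alone, so its call supports nothing. APRT, which salvages adenine, measured 100.4 and 91.3 FPKM in the controls, and 247 and 247 FPKM after treatment, higher by 1.37. TK1, the cytosolic thymidine kinase, was higher by 1.29. Both signs turned at equal GAPDH, to -0.49 for APRT and -0.56 for TK1, and at equal sums of FPKM, to -0.10 and -0.18. HPRT1, which salvages hypoxanthine and guanine with PRPP, was at 39.9, 34.4, 49.7 and 44.02 FPKM (0.34, not called). MTAP and CDA were listed at 0 in all 4 libraries.

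Among 13 genes of deoxynucleotide synthesis and nucleotide kinases, 2 were lower, 1 higher and 10 neither. RRM2, the small subunit of ribonucleotide reductase, fell by 1.21 on the log2 scale, from 23.3 and 22.2 to 9.999 and 9.58 FPKM, while RRM1, the large subunit, was at -0.32 and not called. AK6, whose locus is shared with another gene so that its reads are uncertain, was lower at -1.07. GUK1, the guanylate kinase, measured 39.7 and 38.2 FPKM in the controls, and 196 and 192 FPKM after treatment, a log2 fold change of 2.31 ± 0.04 (adjusted P value 0.000105, limma). It was at 0.46 with equal GAPDH and not called there.

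The 11 tested genes of nucleotide breakdown held 1 lower (AMPD3 at -1.18), 1 higher and 9 neither. The higher gene was NT5E, the ecto-enzyme that forms adenosine outside the cell, with 0.0192 and 0.00997 FPKM in the controls, and 1.24 and 1.02 FPKM after treatment, or 2, 1, 47 and 41 reads. With so few control reads its fold change depends on the pseudocount and is not given. Of 3 tested nucleoside transporters 2 were lower. SLC29A1, the main equilibrative transporter, was at 35.0 and 32.3 FPKM against 7.84 and 7.99 FPKM (-2.07 ± 0.06, adjusted P value 0.000179, limma). SLC29A2 was at 24.4 and 23.7 FPKM against 3.56 and 3.17 FPKM (-2.80 ± 0.08, adjusted P value 0.000173). Both were called lower in each scaling.

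**Figure D5:**
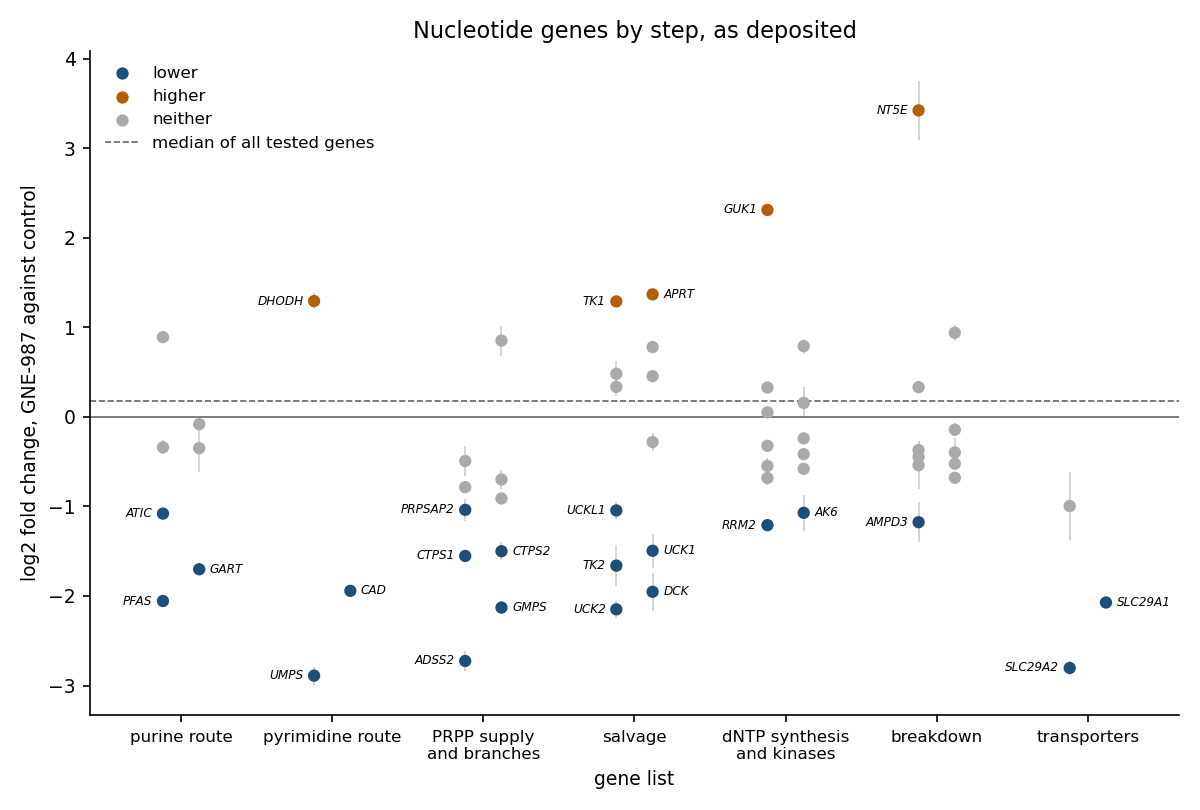
Log2 fold change as deposited, with its SE, of the tested genes of the purine and pyrimidine routes and of 5 further lists, coloured by call, with the names of the called genes; the dashed line is the median of all tested genes, 0.17. The PRPP supply and branch list and the transporters hold no gene called higher, and of the genes called higher DHODH, TK1 and APRT fall below 0 when the libraries are scaled to equal GAPDH or to equal sums of FPKM.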

How the data were processed

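RNA-seq values of 4 libraries labelled NB4 were used, 2 controls and 2 with GNE-987, grouped by the sample labels, and dose and time were taken from the study's text. The authors mapped reads with HISAT2 2.0.5 to hg38, per the submitters' processing notes, and deposited FPKM per gene and library. The counting program and its annotation are not given in the sources used here. The 10 genes, the lists and the tests were chosen with earlier results of these data known.

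Values were tested as log2(FPKM + 0.1) for the 16668 genes that averaged 0.5 FPKM or more, with limma 3.58.1 in R 4.3.3 (empirical Bayes with trend, no covariate), and P values were Benjamini-Hochberg adjusted over all tested genes. Fold changes are on this scale and understate changes of low genes. The deposited values are already scaled as median-ratio factors would scale them, since these factors came out at 1.00 in each library. A library with many reads on a few genes then carries a larger sum of FPKM, so other scalings were tried. Whole reads were worked out from the spacing of FPKM values between libraries (tolerance 0.01 of a read). At GENCODE 44 exon lengths 53.0% of 32895 genes above 0 came out whole in each library, 15325 more did so at another whole length and 139 did not. The recovered reads gave the depth and served as alternatives, never as the main test. GENCODE 44 held 99.1% of the gene identifiers. Ratios within libraries were tested by exact two-sided permutation. The test was checked on data with known changes before use. Every gene of the pathway lists that was tested could be named, with the pseudogenes and neighbours within 1 kb of the 10 genes. A few items are not reported here and were left out of the lists and their counts. Promoter windows came from RefSeq (GRCh38.p14).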

Additional observations from a re-analysis of the deposited data

How the results depend on the processing

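GART, PFAS, CAD and UMPS were called lower under each of the 19 alternatives. The count of the 10 genes called lower was 8 with equal GAPDH and 8 with equal sums of FPKM, beside 58.4% and 52.5% of all tested genes. It was 7 with reads on genes, beside 39.9% of all tested genes and 50.9% of protein-coding genes. It was 6 after quantile normalization, beside 32.8% of all tested genes. It was 4 both with the median ratio over protein-coding genes and with limma's test against a fold change of 2, beside 19.7% and 15.9%. The 10 genes are protein-coding, and shares of protein-coding genes are not given for these other settings. The count called higher was 0 with equal GAPDH, with equal sums of FPKM and with reads on genes or on nuclear genes, and 2 with the median ratio over protein-coding genes. Of all tested genes 18.2%, 19.9%, 25.1%, 26.8% and 37.3% were called higher in the same order. The median log2 fold change of the 10 genes was -2.55 (equal GAPDH), -2.17 (equal sums of FPKM), -1.49 (reads on genes), -1.31 (reads on nuclear genes), -1.64 (quantile normalization), -0.47 (median ratio, protein-coding genes) and -1.08 with a mean of at least 1 FPKM, where ADSL was not tested. Leaving out a library gave between -0.85 and -0.71. DHODH was at -0.53 with equal GAPDH and -0.15 with equal sums of FPKM. Of the 49 further genes, those lower numbered 43 (equal GAPDH), 40 (equal sums of FPKM), 33 (reads on genes), 28 (reads on nuclear genes), 10 (median ratio, protein-coding genes) and 9 (limma's test against a fold change of 2), and those higher 1, 1, 2, 2 and 8 for the first 5 in turn and 2 after quantile normalization. In the order listed, 58.4%, 52.5%, 39.9%, 36.7%, 19.7% and 15.9% of all tested genes were called lower. Those called higher were 18.2%, 19.9%, 25.1%, 26.8% and 37.3% of all tested genes for the first 5, and 25.4% after quantile normalization. With reads on genes, 50.9% of protein-coding genes were called lower and 15.7% higher. The test against a fold change of 2 is stricter by construction, and the cause of the other shifts was not tested beyond the change of scaling itself. The PRPS1 to PRPS2 log2 difference of -0.085 ranged from -0.27 to 0.10 when 1 library was left out, turning at 0.10 without GNE-987 replicate 2.

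A replicate block gave 5 lower, 1 higher and a median of -0.71 for the 10 genes, and 5667 higher and 4186 lower over all genes. Same-numbered libraries did not deviate together (correlation 0.00537 over 16668 genes). With 2 libraries per group this cannot tell whether the numbers stand for paired cultures, and the main test used no pairing. The equal-sum and nuclear-read scalings were chosen after seeing the data. With 2 libraries per group no exact permutation test can go below P = 0.33. Depth limits UMPS in the treated group (52 and 59 reads) and ADSL (58 and 92).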
